A study of Homo sapiens with 32 samples.

Results

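The 37 genes described here either load tRNAs with amino acids or bring amino acids into the cell and make them. They were chosen by gene symbol, and all 37 were listed as protein-coding in the count tables, among 19815 protein-coding genes and 60554 annotated genes. The set holds 20 cytosolic aminoacyl-tRNA synthetases, 5 enzymes of serine synthesis and mitochondrial folate metabolism, 5 enzymes that make asparagine, proline and cysteine, and 7 amino acid transporters.

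RNA-Seq was carried out on 32 libraries, 16 labelled MCF10A, an immortalised breast epithelial line that is not malignant, and 16 labelled MDA-MB-231, a line derived from a metastatic triple-negative breast carcinoma. Cultures were kept in normoxia (N) or at 0.5% O2 for 24 h (H), and PP242, an inhibitor of the mTOR kinase dissolved in DMSO, was present at 2.5 µM for 3 h in normoxia (NPP) or in hypoxia (HPP). Total mRNA (T) and mRNA from the polysomal part of a sucrose gradient (P) were sequenced separately, which gave 8 groups per line with 2 libraries labelled as biological replicates in each. The lines were grown in different media, since EGF, hydrocortisone, cholera toxin and insulin were added for MCF10A only. Library totals ran from 18340916 to 46032327 counts. In these bulk samples fewer expressing cells and less RNA per cell cannot be told apart, and a level in P is a share of polysomal mRNA, so that a change in the whole amount of translation does not show.

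Aminoacyl-tRNA synthetases join each amino acid to its tRNA and so feed the ribosome. Many of their genes, together with those for serine, asparagine and cystine supply, are known targets of ATF4, the transcription factor that is translated when amino acids are short or the endoplasmic reticulum is stressed. mTORC1, which PP242 blocks, is known to raise ATF4 activity and to promote the translation of mRNAs that begin with a run of pyrimidines. Hypoxia is known to slow both protein synthesis and mTORC1.

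The labels were checked against marker genes. In MCF10A the basal keratins KRT5 and KRT14 were abundant, with 1190 to 3268 CPM (counts relative to library size, scaled by the trimmed mean of M values within each line) for KRT5 over the 16 libraries. However, TP63 and CDH1, which also mark breast epithelium, stood at no more than 0.226 and 0.361 CPM in any of those libraries, and the mesenchymal gene VIM was present at 1691 to 9370 CPM. These 16 libraries thus went against part of what their label implies, and MCF10A stands below for the libraries labelled so. In MDA-MB-231, KRT5 did not exceed 0.284 CPM, and VIM, ZEB1 and AXL were all expressed. CA9, a hypoxia target, stood at 7.72 to 12.8 CPM in the 4 normoxic T libraries of MCF10A, with or without PP242, and at 522 to 829 CPM in the 4 hypoxic ones, and in those of MDA-MB-231 at 0.0568 to 0.719 and at 13.0 to 23.5 CPM. 1 pair of libraries stood apart. The T libraries of MCF10A NPP differed from each other with an SD of 1.06 log2 units over all tested genes. The other 15 pairs had 0.242 to 0.743, with the highest in T of MCF10A HPP. An SD within a pair cannot tell which of its libraries deviates. Medians of NPP that use this pair are given with and without each of its libraries. Fits without the second library alone, named below, do not mark that library as the odd one. The replicate differences also followed transcript length in T of MCF10A, with Spearman correlations across genes of -0.609 in H, -0.668 in NPP and -0.623 in HPP, and in P, with 0.685 in N and 0.625 in H, and less closely in MDA-MB-231, where the strongest were -0.525 (T in H) and 0.408 (P in N), so a correction for length was run as an alternative and the calls it ended are named.

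Per length of transcript and scaled within each line, the 37 genes spanned a wide range in normoxic T. In MCF10A the highest were SLC3A2 at 157 ± 30.6 CPM per kb (SD, n = 2), SLC7A5 at 122 ± 21.3 and SLC38A2 at 109.3 ± 17.7, all 3 transporter subunits or transporters, and these neighbours overlapped in their libraries. KARS at 88.9 ± 9.62 CPM per kb was the highest synthetase there and FARSB at 11.5 ± 0.559 the lowest. Both ranks rest on the length of the Ensembl canonical transcript, 1991 bases for KARS and 6761 for FARSB. Which transcript these cells use was not checked. Before division by length EPRS (182 CPM) was above KARS (177 CPM), and CARS (46.1 CPM) was below FARSB (77.8 CPM). SLC7A11 at 0.492 ± 0.223, CTH at 0.533 ± 0.0411 and SLC1A4 at 0.857 ± 0.127 CPM per kb were the lowest of all. In MDA-MB-231 SLC7A5 led with 220 ± 57.4 CPM per kb, TARS with 145 ± 8.92 was the most abundant synthetase, and FARSB with 11.997 ± 0.405 was again the least. The libraries of SLC7A5 overlapped there with those of SLC3A2 (198 ± 15.1), and those of TARS with GARS (142 ± 11.1) and KARS (136 ± 11.9). SLC3A2 and SLC7A5 form the heavy and light chains of the leucine transporter LAT1. The plot of normoxic levels shows both lines on 1 scale.

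**Figure D1:**
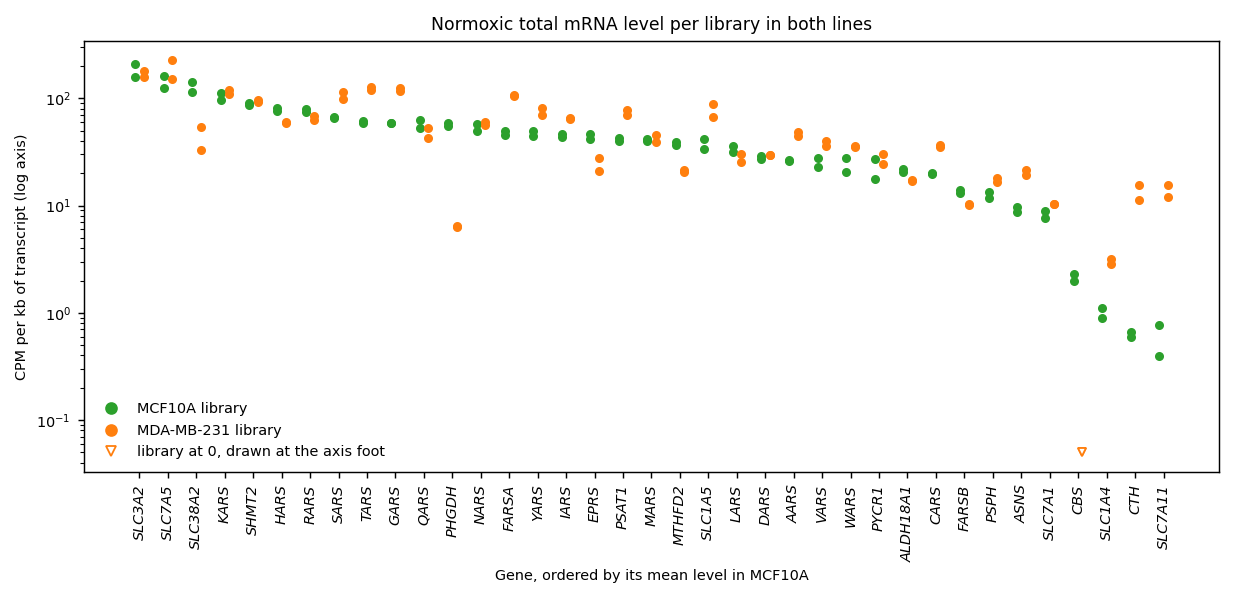
Normoxic total mRNA of the 37 genes in CPM per kb of transcript (log axis, libraries of both lines scaled together), with 1 point for each of the 2 libraries per line. The synthetases of the lines lie within a few-fold of each other, whereas PHGDH sits far lower and SLC7A11 and CTH far higher in MDA-MB-231, and CBS is at 0 in both of its libraries.

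The resting lines differed in these genes before any treatment. In normoxic T, 15 of 37 genes were higher in MDA-MB-231 than in MCF10A, where 20.3% of all tested genes were, and 5 were lower, where 20.5% were (edgeR quasi-likelihood test with Benjamini-Hochberg adjustment over all genes, adjusted p under 0.05). The median log2 difference of the 37 was 0.32, and that of all tested genes -0.03. The first ran from 0.212 without the first MCF10A library to 0.545 without the second. Without a block, 9 of the 20 synthetases were higher and EPRS, which charges both glutamate and proline, was lower, with a log2 difference of -0.86 (SE 0.256). With the replicate number as a block within each fraction, which raised the genes called in all from 5826 to 7231, FARSB (-0.41, adjusted p = 0.0252) and HARS (-0.43, adjusted p = 0.0377) were also lower. PSPH, of the serine enzymes, was called higher with that block (0.46, adjusted p = 0.0390), with DESeq2 (adjusted p = 0.0271) and with the correction for length (adjusted p = 0.00245). VARS, the valyl-tRNA synthetase, was called higher under 5 alternatives, with adjusted p from 0.0210 to 0.0477. Line and culture medium cannot be told apart in this comparison, and each line has its own count table.

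PHGDH, SLC7A11, CTH and CBS stood furthest apart. PHGDH encodes the first enzyme of serine synthesis and had 104.1 and 110 CPM in MCF10A and 11.8 and 12.1 CPM in MDA-MB-231 on the scale common to both lines. PSAT1, the next enzyme of that pathway, went the other way, with 89.1 and 94.4 CPM in MCF10A and 155 and 172 CPM in MDA-MB-231. The log2 differences were -3.16 (SE 0.326, adjusted p = 8.88e-08) for PHGDH and 0.83 (SE 0.182, adjusted p = 8.64e-04) for PSAT1 by edgeR, and neither pair of libraries overlapped with the other line.

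SLC7A11, the cystine importer, had 7.36 and 3.81 CPM in MCF10A and 149 and 115 CPM in MDA-MB-231, a log2 difference of 4.56 (SE 0.705, adjusted p = 2.07e-05). CTH, which releases cysteine from cystathionine, had 1.38 and 1.25 CPM in MCF10A and 32.5 and 23.8 CPM in MDA-MB-231, a log2 difference of 4.42 (SE 0.413, adjusted p = 2.10e-08). CBS, which makes cystathionine, had 5.73 and 4.93 CPM in MCF10A and no count in either MDA-MB-231 library. Taking 3 counts over both MDA-MB-231 libraries as the limit, CBS was at least 94.4-fold higher in MCF10A. Over all 16 MDA-MB-231 libraries CBS had 2 counts, both in 1 library, so it was not tested there and 36 genes remained. Its near-identical copy CBSL shares reads with it, and held 20 counts over the MCF10A libraries and 1 over those of MDA-MB-231.

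Lower in MDA-MB-231 were also MTHFD2, a mitochondrial folate enzyme, by a log2 difference of -0.85 (SE 0.141), and SLC38A2, an importer of neutral amino acids, by -1.55 (SE 0.550). ASNS, the asparagine synthetase, was higher there, with 23.2 and 20.6 CPM in MCF10A against 46.4 and 50.7 CPM, and SLC1A5 and SLC1A4, 2 neutral amino acid transporters, were higher by 1.04 (SE 0.218) and 1.57 (SE 0.285). Among these named genes the call for SLC38A2 was lost without either MCF10A library or without the second MDA-MB-231 library, and that for EPRS without the first MCF10A or the second MDA-MB-231 library. The other 4 kept theirs. Of the higher synthetases, SARS and IARS lost the call without any 1 library, YARS without the first MCF10A or the second MDA-MB-231 library, and WARS without any 1 but the second MCF10A library. Fewer of the 37 genes were called whichever of the 4 libraries was left out, and the number of all genes called in those fits is not given here.

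Hypoxia alone changed few of the 37 genes. In T of MCF10A, PSAT1 fell and no other gene passed the test by edgeR without a block or length correction, so that 0 genes rose, against 1.39% of all tested genes, and 1 fell, against 0.145%. In P of MCF10A 0 rose, against 1.33%, and 2 fell, PSAT1 and YARS, the tyrosyl-tRNA synthetase, against 0.16%. The median log2FC of the 37 was -0.29 in T and -0.28 in P, beside -0.03 and -0.07 for all tested genes, and 31 and 29 of 37 values were negative. In MDA-MB-231, FARSB, which encodes a subunit of the phenylalanyl-tRNA synthetase, was the 1 gene that fell in T, against 0.289% of all tested genes, and the 1 that fell in P, against 0.511%. 0 genes rose there in T, against 0.977%, or in P, against 1.78%. There T had a median of -0.07 beside -0.02, P a median of -0.22 beside 0.01, and 33 of 36 values in P were negative. Leaving out 1 of the libraries compared gave medians from -0.12 to -0.06 in T and from -0.28 to -0.14 (without the second H library) in P. Other settings called more genes in hypoxia. In P of MDA-MB-231, VARS (log2FC -0.63, SE 0.164, adjusted p = 0.0611 by edgeR) was called down with DESeq2, with size factors by relative log expression (RLE), without the filter on low counts, with either replicate block and with the correction for length (adjusted p from 0.00398 to 0.0479), and KARS and YARS with DESeq2 (adjusted p = 0.0389 and 0.0354), YARS also with the correction for length (adjusted p = 0.0489). In MCF10A, MTHFD2 was called down by DESeq2 in T (adjusted p = 0.0266) and P (adjusted p = 0.00155), and DARS was called up in T by DESeq2 (log2FC 0.79, adjusted p = 0.0130) and with the correction for length (adjusted p = 0.0433). YARS was called down in T of MCF10A by DESeq2 (log2FC -0.87, adjusted p = 0.0336) and with the correction for length (adjusted p = 0.0121).

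PSAT1 in T of MCF10A had 75.9 and 79.8 CPM in N, 38.5 and 35.8 CPM in H, 67.5 and 88.5 CPM in NPP, and 23.8 and 28.03 CPM in HPP. Levels in P were 110 and 115 CPM in N, 55.8 and 48.3 CPM in H, 128 and 107.9 CPM in NPP, and 34.1 and 44.5 CPM in HPP. All 4 hypoxic libraries of either fraction lay below all 4 normoxic ones. The fall in H had a log2FC of -1.07 (SE 0.227, adjusted p = 0.0399) in T and -1.11 (SE 0.227, adjusted p = 0.0340) in P by edgeR. Both calls were lost when any 1 of the 4 libraries compared was left out, with RLE, and with no filter on low counts. With the replicate number as a block in the T libraries, whose numbers paired, PSAT1 and YARS were called in T, YARS with a log2FC of -0.88 (adjusted p = 0.0355).

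In MDA-MB-231 the same gene was not called by edgeR without a correction for length. In T it had 179 and 205 CPM in N, 152 and 187 CPM in H, 184 and 189 CPM in NPP, and 160 and 151 CPM in HPP. In P the values were 237 and 269, 197 and 185, 248 and 259, and 205 and 212 CPM in the same order. In P the hypoxic libraries lay below the normoxic ones, and the H change there (log2FC -0.43) was called by DESeq2 (adjusted p = 0.0252) and with the correction for length (adjusted p = 0.0423).

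FARSB fell in hypoxia in both fractions of MDA-MB-231. In T it had 79.2 and 83.0 CPM in N, 47.1 and 56.3 CPM in H, 76.8 and 71.3 CPM in NPP, and 45.0 and 44.0 CPM in HPP. In P it had 83.5 and 87.1, 48.6 and 48.6, 75.9 and 80.5, and 43.0 and 49.5 CPM. All 8 hypoxic libraries were therefore below all 8 normoxic ones. The log2FC in H was -0.65 (SE 0.129, adjusted p = 0.0212) in T and -0.81 (SE 0.129, adjusted p = 0.00436) in P by edgeR. The P call held without any of the 4 libraries, whereas the T call was lost without either N library or without the first H library, and with a correction for transcript length (log2FC -0.56, adjusted p = 0.0799). In MCF10A, FARSB had 75.2 and 80.5 CPM in N and 49.4 and 56.6 CPM in H in T, with no call.

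PP242 alone in normoxia gave no call among the 37 genes in either line by edgeR with the filter on low counts and without a block or length correction. In MDA-MB-231 without that filter, CTH was called up in T (adjusted p = 0.0159), among 324 genes in all. CTH and SLC38A2 were called up in P there (adjusted p = 0.00286 and 0.00498), among 569 in all. Here and below, counts at an unadjusted p under 0.05 are given without the share of all tested genes. They are therefore not read as a result about the 37. MCF10A had 0 genes up and 0 down in T, against 0.343% and 0.305% of all tested genes, with 1 gene at an unadjusted p under 0.05 by edgeR and 0 called by DESeq2. In P of MCF10A 0 rose and 0 fell, against 0.472% and 0.351%, with 8 genes at an unadjusted p under 0.05 and 2 called by DESeq2 among 665 in all, AARS up and MTHFD2 down. The block within each fraction called MTHFD2 down (adjusted p = 0.0419) and EPRS up (adjusted p = 0.0424) there, and the correction for length called EPRS (adjusted p = 0.00977) and LARS (adjusted p = 0.0341) up, among 666 and 803 in all. MDA-MB-231 also had 0 genes up and 0 down, against 0.377% and 0.178% for T and 0.762% and 1.19% for P, with 3 and 4 genes at an unadjusted p under 0.05 and 1 (QARS, up) and 0 called by DESeq2, among 251 and 529 in all. With either replicate block CTH, EPRS and SLC38A2 were called up in P of MDA-MB-231, where the genes called in all went from 264 to 451 and 488. In P the 37 had a median log2FC of 0.17 in MCF10A and 0.04 in MDA-MB-231. These ran from 0.06 to 0.26 and from 0.03 to 0.06 with 1 of the libraries compared left out. In T of MDA-MB-231 the median was 0.08, and ran from 0.04 to 0.10 in the same way. In T of MCF10A it was 0.05, with 0.18 without the first and -0.04 without the second NPP library. When the first NPP library was left out instead, 1 gene was called in T of MCF10A.

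Hypoxia with PP242 gave the most calls in both lines, and the falls came mostly from synthetases and serine enzymes. In MCF10A, T had 2 genes up (DARS and CTH), against 7.43% of all tested genes, and 6 down (MARS, YARS, FARSB, IARS, WARS and PSAT1), against 7.47%. P had the same 2 up, against 10.2%, and 8 down (MTHFD2, PSAT1, YARS, PYCR1, FARSB, KARS, MARS and WARS), against 11.9%. In MDA-MB-231, T had 2 up (SLC1A4 and DARS), against 6.31%, and FARSB down, against 6.91%, while P had 0 up, against 9.71%, and 6 down (FARSB, MTHFD2, KARS, VARS, FARSA and YARS), against 9.73%. With 1 of the 4 libraries left out, whichever it was, MCF10A had 2 to 4 calls in T and 4 to 7 in P, and MDA-MB-231 had 1 or 2 in T and 2 or 3 in P. The members' shares of falls were above the background in P of both lines and in T of MCF10A, and no test of that was made. Without the filter on low counts P of MDA-MB-231 had 3 up and 2 down, among 3053 genes called in all in place of 2627. KARS, VARS, FARSA and YARS lost the call there (adjusted p = 0.0782, 0.0917, 0.0884 and 0.110).

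**Figure D2:**
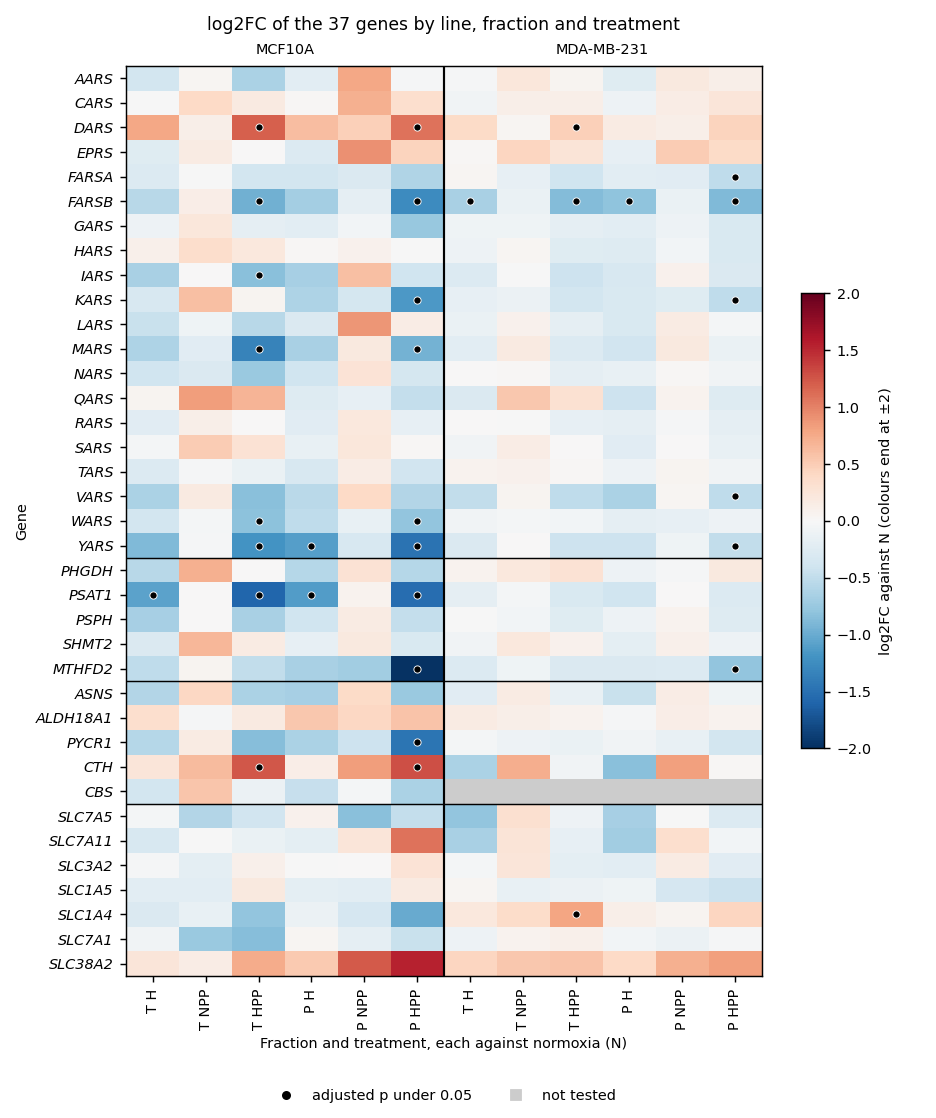
log2FC against normoxia of the 37 genes (listed by role) in T and P under H, NPP and HPP, with blue for lower, red for higher and a black dot where the adjusted p is under 0.05. Dots gather in the HPP columns, where FARSB falls in all 4, and the NPP columns hold none.

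The median log2FC of the 37 under HPP was -0.17 in T and -0.44 in P of MCF10A, beside -0.01 and -0.04 for all tested genes. In MDA-MB-231 it was -0.14 in both fractions, beside -0.05 and 0.01. With 1 of the libraries compared left out these medians ran from -0.34 (without the second HPP library) to -0.17 in T and from -0.41 to -0.28 (without the first N library) in P of MCF10A, and from -0.13 to -0.04 (without the second HPP library) in T and from -0.17 to -0.07 (without the first N library) in P of MDA-MB-231. The T median of MCF10A was -0.12 without the second NPP library of T. Among the 20 synthetases, 5 fell and 1 rose in T of MCF10A, and again 5 fell and 1 rose in P. In MDA-MB-231, 1 fell and 1 rose in T and 5 fell in P. YARS, VARS, IARS, KARS and FARSA fell in T of MDA-MB-231 too, with log2FC from -0.51 to -0.33, with DESeq2, with either replicate block and with the correction for length, where 2149 to 2608 genes were called in all in place of 1786. Of the 5 serine and folate enzymes, 1 fell in T and 2 in P of MCF10A, and 0 and 1 in MDA-MB-231. Of the 7 transporters the sole call by edgeR, before any block or other alternative, was SLC1A4 in T of MDA-MB-231.

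Promoters of several synthetases hold the letters TGATGCAA, the core of the element that ATF4 binds together with a C/EBP partner. RefSeq windows from 250 bases before to 50 after each start (GRCh38.p14) were found for 29 of the 37 genes, and 8 of these genes have the letters on either strand in at least 1 window, that is in 8 of their 42 windows. Of all 35116 windows, 0.866% have them. The stretches around the match are shown for AARS (chr16:70289666-70289713), CARS (chr11:3057398-3057445), IARS (chr9:92293683-92293730), MARS (chr12:57488044-57488091), TARS (chr5:33440947-33440994) and SLC1A4 (chr2:64989372-64989419), read 5′ to 3′ on the strand of the gene, which is minus for the first 3 and plus for the rest. Capitals mark the match, here always in its reverse complement, TTGCATCA.
AARS: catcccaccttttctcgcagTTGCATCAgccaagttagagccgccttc
CARS: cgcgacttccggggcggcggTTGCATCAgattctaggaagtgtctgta
IARS: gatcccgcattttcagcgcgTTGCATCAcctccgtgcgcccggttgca
MARS: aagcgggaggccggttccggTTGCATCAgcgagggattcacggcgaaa
TARS: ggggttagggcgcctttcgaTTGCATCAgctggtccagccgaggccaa
SLC1A4: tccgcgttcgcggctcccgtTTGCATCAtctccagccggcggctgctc
NARS and SLC1A5 also have it. Counted from the start that belongs to its window, the match lies 187 bases before it in AARS, and from 13 bases before to 3 after it in the other 5 shown. TARS, SLC1A4 and SLC1A5 also have windows at starts further upstream, which lack the letters. Under HPP the 8 genes with the letters did not move as 1 group. In T of MCF10A the 8 genes had a median log2FC of -0.68 with 2 falls, and the other 21 with a window a median of 0.00 with 1 rise and 3 falls. In P of MCF10A the order was turned, with -0.37 and 1 fall for the 8 and -0.48 with 1 rise and 5 falls for the others. In T of MDA-MB-231 the medians were -0.05 with 1 rise and -0.13 with 1 fall, and in P of that line -0.07 with no call and -0.21 with 4 falls. Only these exact letters were sought, so the other 21 may hold elements of another spelling. The split therefore does not separate targets of ATF4 from other genes. The letters were chosen with the values known, and binding of ATF4 was not measured here.

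MARS, the methionyl-tRNA synthetase, had 94.5 and 99.4 CPM in N, 63.1 and 62.7 CPM in H, 68.0 and 97.6 CPM in NPP, and 31.0 and 45.7 CPM in HPP in T of MCF10A. P libraries had 119 and 110.9, 74.9 and 72.1, 145 and 119, and 54.2 and 65.1 CPM. The HPP libraries lay below those of N in both fractions. The log2FC under HPP was -1.34 (SE 0.254, adjusted p = 0.00513) in T and -0.95 (SE 0.251, adjusted p = 0.0201) in P by edgeR. The T call was lost without the first HPP library, where the log2FC was -0.99, and the P call without the first N library, without either HPP library and with no filter on low counts. In MDA-MB-231, MARS had 147 and 131 CPM in N and 115 and 116 CPM in HPP in T, and 148 and 130 CPM in N and 127 and 127 CPM in HPP in P, with no call.

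YARS had 92.0 and 101.5 CPM in N, 51.1 and 53.6 CPM in H, 73.4 and 116 CPM in NPP, and 37.6 and 46.6 CPM in HPP in T of MCF10A. In P it had 142 and 129, 62.5 and 64.1, 114 and 103.8, and 50.2 and 47.5 CPM. All hypoxic libraries were below all normoxic ones in each fraction, and the 2 HPP libraries were the lowest. Under HPP the log2FC was -1.20 (SE 0.240, adjusted p = 0.00669) in T and -1.47 (SE 0.241, adjusted p = 0.00189) in P, and in H it was -1.10 (SE 0.239, adjusted p = 0.0475) in P by edgeR. The P call under HPP held without any of the 4 libraries, the T call was lost without the second N or the first HPP library, and the P call in H was lost without any 1, with RLE scaling (adjusted p = 0.0780) and with no filter on low counts (adjusted p = 0.140). In P of MDA-MB-231, YARS went from 265 and 296 CPM in N to 195 and 205 CPM in HPP, a log2FC of -0.49 (SE 0.144, adjusted p = 0.0288) that was lost without any 1 of the 4 and with no filter (adjusted p = 0.110).

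FARSB fell under HPP in every fraction of both lines. In MCF10A it went from 75.2 and 80.5 CPM to 36.8 and 42.7 CPM in T, and from 121 and 86.3 CPM to 44.9 and 41.5 CPM in P. The log2FC was -0.97 (SE 0.231, adjusted p = 0.0161) in T and -1.27 (SE 0.232, adjusted p = 0.00325) in P of MCF10A, and -0.87 (SE 0.129, adjusted p = 8.93e-04) and -0.88 (SE 0.129, adjusted p = 3.87e-04) in MDA-MB-231, all by edgeR. Both calls in MDA-MB-231 held without any of their 4 libraries. In MCF10A the T call was lost without any 1 library and with the correction for transcript length (log2FC -0.65, adjusted p = 0.343), and the P call was lost without the first N library, where the log2FC was -0.93. With no filter on low counts the T call was also lost (adjusted p = 0.0510). FARSA, which encodes the other subunit of the same enzyme, fell in P of MDA-MB-231 by 0.50 on the log2 scale (SE 0.132, adjusted p = 0.0171), a call lost without any 1 of the 4 libraries and with no filter on low counts.

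DARS, the aspartyl-tRNA synthetase, was the 1 synthetase that rose under HPP by edgeR with the filter on low counts and without a block. In T of MCF10A it had 75.9 and 72.0 CPM in N, 124 and 129 CPM in H, 93.0 and 67.4 CPM in NPP, and 184 and 154 CPM in HPP. In the P libraries there were 117 and 100, 158 and 175, 164 and 138, and 214 and 250 CPM. The HPP libraries were the highest in each fraction, and in T both H libraries were above all normoxic ones. The log2FC under HPP was 1.19 (SE 0.227, adjusted p = 0.00526) in T and 1.09 (SE 0.227, adjusted p = 0.00621) in P by edgeR. The T call was lost without either N library and the P call without the second HPP library. In T of MDA-MB-231 it went from 106.4 and 110.7 CPM in N to 161 and 141 CPM in HPP, with 129 and 155 CPM in H and 116 and 108.6 CPM in NPP, a log2FC of 0.48 (SE 0.150, adjusted p = 0.0485) that was lost without any 1 of the 4. In P of MDA-MB-231, DARS (log2FC 0.44) was called up with DESeq2, with either replicate block, without the filter and with the correction for length, with adjusted p from 0.0199 to 0.0492. EPRS was called up there with either block (log2FC 0.39, adjusted p = 0.0429 and 0.0267) and without the filter (adjusted p = 0.0497).

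WARS, the tryptophanyl-tRNA synthetase, had 46.4 and 61.6 CPM in N and 27.3 and 33.9 CPM in HPP in T of MCF10A, and 70.5 and 70.0 against 37.9 and 43.1 CPM in P. Its H libraries had 37.5 and 46.3 CPM in T and 43.3 and 55.9 CPM in P, and its NPP libraries 43.8 and 61.4 CPM in T and 64.7 and 61.7 CPM in P. The HPP falls of -0.82 (SE 0.253, adjusted p = 0.0496) in T and -0.79 (SE 0.252, adjusted p = 0.0427) in P were lost without any 1 library compared, without the second NPP library of T (adjusted p = 0.0557 and 0.0522), with RLE scaling, with no filter on low counts (adjusted p = 0.130 and 0.127), and in T with DESeq2. IARS fell in T by 0.84 (SE 0.232, adjusted p = 0.0309), a call that was also lost without any 1 library and with no filter (adjusted p = 0.0929). With the replicate number as a block in T of MCF10A, 12 genes were called under HPP, these 8 and AARS, NARS, VARS and PYCR1, all 4 down, while the genes called in all rose from 1956 to 3484 of 13124.

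AARS and GARS, the alanyl- and glycyl-tRNA synthetases, were not called in any treatment contrast by edgeR as fitted for the counts above, but some alternatives called them. With the block within each fraction AARS fell under HPP in T of MCF10A (log2FC -0.63, adjusted p = 0.0473), and with DESeq2 it rose under NPP in P of that line (log2FC 0.76, adjusted p = 0.0292). GARS fell under HPP in P of MCF10A with the same block (log2FC -0.73, adjusted p = 0.0263) and with the correction for length (log2FC -0.66, adjusted p = 0.0220), and in P of MDA-MB-231 with DESeq2 (log2FC -0.34, adjusted p = 0.0328) and the correction for length (log2FC -0.33, adjusted p = 0.0415). In T of MCF10A, AARS had 77.3 and 75.0 CPM in N, 62.8 and 54.7 CPM in H, 70.3 and 86.5 CPM in NPP, and 46.5 and 52.0 CPM in HPP. In P it had 70.9 and 91.3, 65.3 and 75.1, 150 and 128, and 71.0 and 89.1 CPM, so that both NPP libraries were above the others. In MDA-MB-231 it stayed between 158 and 225 CPM over all 16 libraries, with a rise from H to HPP in P that DESeq2 called (log2FC 0.35, adjusted p = 0.0356). GARS had 122 and 120 CPM in N and 87.0 and 128 CPM in HPP in T of MCF10A, and 201 and 147 against 94.5 and 112.3 CPM in P. In MDA-MB-231 it stayed between 287 and 396 CPM.

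**Figure D3:**
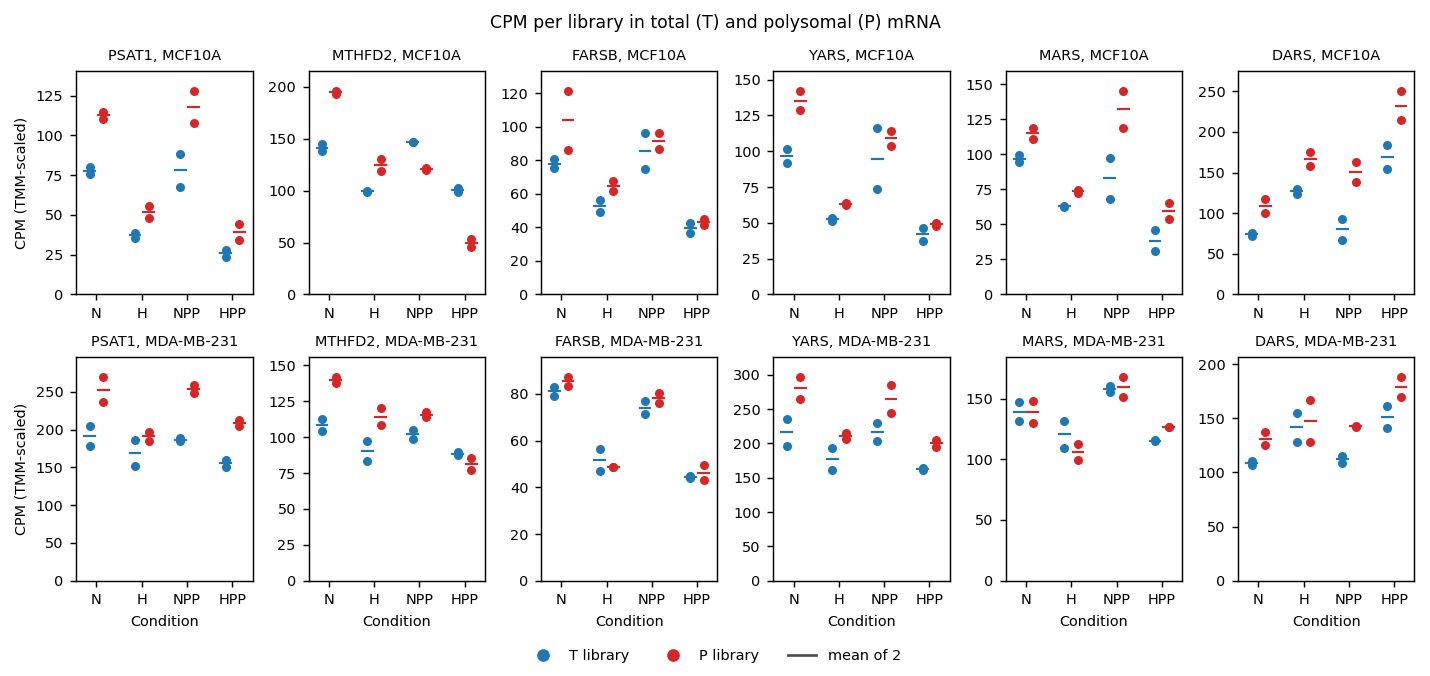
CPM of 6 genes in each library (points; T blue, P red; short bars are means of 2) across N, H, NPP and HPP, with MCF10A above and MDA-MB-231 below and each axis from 0. PSAT1, FARSB, YARS and MARS are lowest in HPP in MCF10A, DARS is highest there, and MTHFD2 under HPP is lower in P than in T.

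MTHFD2 had the largest fall of the 37 under HPP in P of MCF10A. In T of that line it had 138 and 145 CPM in N, 98.9 and 99.5 CPM in H, 147 and 146 CPM in NPP, and 98.2 and 102.8 CPM in HPP. Its P levels were 196 and 193, 131 and 119, 121 and 120, and 53.2 and 45.6 CPM. In T the hypoxic libraries therefore lay below the normoxic ones and both NPP libraries slightly above those of N, whereas in P each treatment lay below N and HPP was the lowest. The log2FC in P under HPP was -1.98 (SE 0.190, adjusted p = 1.17e-04) by edgeR, and it held without any of the 4 libraries.

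In MDA-MB-231 MTHFD2 had 104.3 and 112.5 CPM in N, 83.3 and 97.1 CPM in H, 104.9 and 98.9 CPM in NPP, and 89.7 and 87.3 CPM in HPP in T. In P it had 142 and 138, 120 and 108.4, 114 and 117, and 77.3 and 85.4 CPM. The order of the P groups was that of MCF10A, with N highest, HPP lowest and H and NPP side by side. The log2FC in P under HPP was -0.78 (SE 0.125, adjusted p = 8.48e-04) by edgeR and held without any of the 4 libraries.

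PP242 added to hypoxia lowered MTHFD2 in P of both lines. HPP against H, which uses no normoxic library, gave a log2FC of -1.34 (SE 0.186, adjusted p = 0.00307) in MCF10A and -0.49 (SE 0.125, adjusted p = 0.0211) in MDA-MB-231 by edgeR. The first held without any of the 4 libraries, and the second was lost without any 1 and with no filter on low counts (adjusted p = 0.0917). In T of the same contrast MTHFD2 was not called in either line.

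Few other genes changed when PP242 was added to hypoxia. MCF10A had 0 genes up and 0 down in T, against 1.33% and 2.42% of all tested genes, with 3 genes at an unadjusted p under 0.05 by edgeR and 0 called by DESeq2. In P of MCF10A 0 rose, against 2.63%, and MTHFD2 was the 1 that fell, against 3.87%. CTH was called up there by DESeq2 (log2FC 1.15, adjusted p = 0.0429), with the block within each fraction (adjusted p = 0.0460) and with the correction for length (adjusted p = 0.0362), as was EPRS with the correction for length (adjusted p = 0.0205), and PYCR1 was called down with the block within each fraction (adjusted p = 0.0464). In T of MDA-MB-231 QARS rose, against 1.7%, and 0 fell, against 2.08%. In P of MDA-MB-231 EPRS and SLC7A11 rose, against 4.86%, and MTHFD2 fell, against 6.62%. DESeq2 also called SLC1A4 up (adjusted p = 0.0337) and FARSA down (adjusted p = 0.0174) in T, and CARS up (adjusted p = 0.0239) in P of that line.

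QARS, the glutaminyl-tRNA synthetase, had 150 and 124 CPM in N, 110 and 113 CPM in H, 194 and 205 CPM in NPP, and 167 and 172 CPM in HPP in T of MDA-MB-231. P levels were 153 and 117, 101.2 and 101.5, 146 and 139, and 120 and 104.8 CPM. The T libraries with PP242 were above those without it at either oxygen level, and in P the groups lay closer. HPP against H in T gave a log2FC of 0.61 (SE 0.147, adjusted p = 0.0345) by edgeR, lost without any 1 of the 4. In T of MCF10A, QARS had 110 and 129 CPM in N, 129 and 298 CPM in NPP, and 141 and 240 CPM in HPP, with a wide gap between replicates.

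EPRS had 110 and 101.7 CPM in H and 150 and 159 CPM in HPP in P of MDA-MB-231, with 123 and 114 CPM in N and 181 and 157 CPM in NPP. The log2FC of HPP against H was 0.55 (SE 0.165, adjusted p = 0.0446) by edgeR, lost without any 1 of the 4, with RLE scaling and with the correction for length. SLC7A11 in P of MDA-MB-231 had 143 and 201 CPM in N, 97.9 and 114 CPM in H, 223 and 208 CPM in NPP, and 165 and 166 CPM in HPP. Its libraries with PP242 lay above those in hypoxia alone, with a log2FC of 0.64 (SE 0.183, adjusted p = 0.0355) that was lost without any 1 of the 4. In T it had 171 and 137, 114 and 82.3, 191 and 176, and 138 and 139 CPM, in the same order of groups. The H libraries were the lowest in each fraction. The H change of SLC7A11 was -0.70 (SE 0.184, adjusted p = 0.0633) in P, called with DESeq2, either block, no filter and the correction for length (adjusted p from 0.00630 to 0.0428), and -0.66 (SE 0.184, adjusted p = 0.114) in T, called with the same alternatives but the plain block (adjusted p from 0.0296 to 0.0458). In MCF10A, SLC7A11 ranged from 0.837 to 11.3 CPM with wide gaps between replicates.

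Te, the log2FC in P minus that in T, was tested as an interaction of fraction and treatment. For the 37 genes 0 were called in any of the 6 contrasts by edgeR without a block or length correction. In MCF10A 0% of all tested genes were called up and 0% down in H, in NPP and in HPP. In MDA-MB-231 0.0074% were called up and 0.0074% down in H, 0% up and 0.34% down in NPP, and 0% up and 0.696% down in HPP. Without adjustment, p was under 0.05 for 0 genes in H, 2 in NPP and 2 in HPP of MCF10A, and for 0, 1 and 2 of MDA-MB-231. DESeq2 called 1 in MCF10A under HPP, MTHFD2, among 140 in all, and 0 elsewhere.

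MTHFD2 had the lowest Te change under HPP in MCF10A, -1.49 (SE 0.260, adjusted p = 0.289 by edgeR). DESeq2 called it at an adjusted p of 5.48e-10, as did edgeR with the replicate block within each fraction at 0.0146 and with the correction for length at 0.0280. T and P libraries share a number in their labels, and with that number as a block 0 of the 37 genes were called, as with the plain replicate block, with RLE and with no filter on low counts. KARS and QARS followed with -1.19 (SE 0.514) and -1.14 (SE 0.535). In MDA-MB-231 the lowest were QARS at -0.57 (SE 0.207) and MTHFD2 at -0.49 (SE 0.177), with adjusted p of 0.932 and 0.925. SLC7A11 at 1.23 (SE 1.21) and SLC38A2 at 0.80 (SE 0.942) were the highest in MCF10A, with errors as wide as the values. Under HPP the median Te change of the 37 was -0.09 for MCF10A and -0.04 for MDA-MB-231, beside 0.05 and 0.06 for all tested genes. With 1 library left out the MCF10A median ran from -0.18 (without the first HPP library of T) to 0.11 (without the second), so that its sign rested on 1 library, and that of MDA-MB-231 from -0.09 to -0.02. In NPP of MCF10A the median Te change was 0.06, and 0.22 without the second T library of NPP or -0.17 without the first, with 0 genes called each time. In H 34 of 36 Te values of MDA-MB-231 were negative, with a median of -0.15 beside 0.01, and for MCF10A 21 of 37 were, with a median of -0.02 beside -0.04 that reached 0.09 without the second H library of T.

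**Figure D4:**
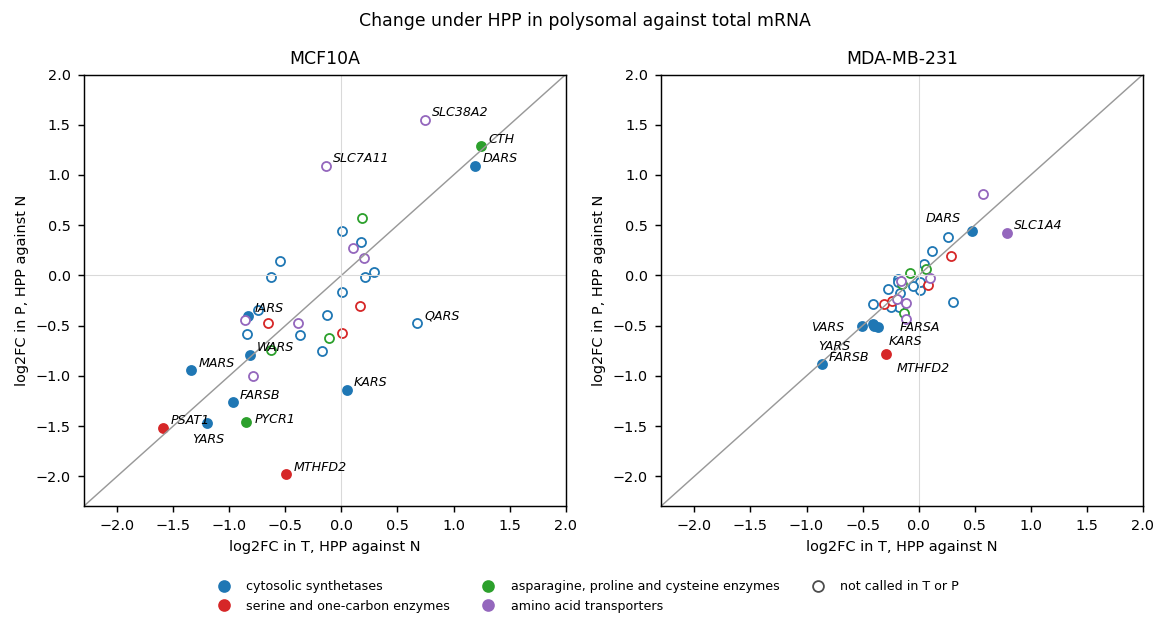
log2FC under HPP in P against that in T for each gene (points coloured by role, filled where called in T or P), with the diagonal marking equal change. MTHFD2, KARS and QARS lie furthest below the diagonal in MCF10A, and MTHFD2 and QARS are below it in MDA-MB-231, where all genes lie closer to it.

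The starts of the mRNAs that were lowest in Te are shown because mTORC1 acts on mRNAs that begin with a cytosine and a run of pyrimidines. A C followed by at least 4 pyrimidines at the annotated start was found in MTHFD2 and QARS of the 29 genes with a RefSeq window, that is in 2 of their 42 windows, and in 4.07% of all windows. The 60 bases around the start are those of MTHFD2 (chr2:74198585-74198644, plus strand), QARS (chr3:49104728-49104787, minus strand) and KARS (chr16:75647636-75647695, minus strand) in GRCh38.p14, with the first 5 transcribed bases in capitals.
MTHFD2: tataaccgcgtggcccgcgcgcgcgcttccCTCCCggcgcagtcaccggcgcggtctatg
QARS: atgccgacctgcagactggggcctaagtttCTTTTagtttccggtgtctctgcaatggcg
KARS: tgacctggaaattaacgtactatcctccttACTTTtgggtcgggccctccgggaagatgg
KARS has the pyrimidines from its second base. These letters were chosen with the Te values known, the annotated start need not be the one used in these cells, and its part in the result was not tested.

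KARS, the lysyl-tRNA synthetase, had 163 and 191 CPM in N, 123 and 160 CPM in H, 175 and 361 CPM in NPP, and 138 and 229 CPM in HPP in T of MCF10A. In P it had 384 and 248, 222 and 188, 256 and 242, and 156 and 130 CPM. In T the HPP libraries lay on either side of those of N, and in P both HPP libraries were below all others. In P the log2FC under HPP was -1.14 (SE 0.366, adjusted p = 0.0443) by edgeR, and -0.73 with no call without the first N library, which held the highest value. Leaving out either HPP library, RLE scaling or no filter on low counts also ended the call. In P of MDA-MB-231 it went from 334 and 331 CPM in N to 231 and 236 CPM in HPP, with 278 and 260 CPM in H and 280 and 285 CPM in NPP, a log2FC of -0.51 (SE 0.120, adjusted p = 0.00950). That call was lost without the first N library, without either HPP library and with no filter on low counts.

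Of the other enzymes of serine, asparagine, proline and cysteine supply, PSAT1, CTH and PYCR1 were called under treatment by edgeR as fitted for the counts above, all in MCF10A. PSAT1 under HPP in MCF10A had a log2FC of -1.59 (SE 0.230, adjusted p = 0.00122) in T and -1.52 (SE 0.229, adjusted p = 0.00124) in P by edgeR, and both calls held without any of the 4 libraries. PHGDH in MCF10A had 88.7 and 93.0 CPM in N, 55.7 and 68.1 CPM in H, 83.8 and 215 CPM in NPP, and 72.5 and 110 CPM in HPP in T, and 169 and 122, 110 and 85.7, 196 and 161, and 95.2 and 99.9 CPM in P. It was not called in any treatment contrast, and in MDA-MB-231 it stayed between 13.6 and 22.1 CPM. SHMT2, which turns serine into glycine in mitochondria, had 161 and 165 CPM in N and 149 and 218 CPM in HPP in T of MCF10A, 195 and 181 against 152 and 151 CPM in P, and 213 to 300 CPM in MDA-MB-231, with no call.

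ASNS in MCF10A had 19.7 and 17.5 CPM in N, 13.1 and 11.7 CPM in H, 19.9 and 29.9 CPM in NPP, and 9.58 and 14.4 CPM in HPP in T. In polysomal mRNA there were 28.5 and 21.6, 19.1 and 12.6, 36.4 and 28.7, and 13.3 and 16.7 CPM. The hypoxic libraries lay below the normoxic ones in each fraction, but no contrast of ASNS passed the test. In MDA-MB-231 it ranged from 39.5 to 67.7 CPM in T. In P of that line it had 61.3 and 58.4 CPM in N, 44.5 and 43.5 CPM in H, 63.4 and 69.1 CPM in NPP, and 53.1 and 59.6 CPM in HPP, so that the H libraries were the lowest, again without a call (log2FC of H -0.44, SE 0.164, adjusted p = 0.180). CTH in T of MCF10A had 1.18 and 1.05 CPM in N, 1.34 and 1.30 CPM in H, 1.65 and 1.80 CPM in NPP, and 2.16 and 3.12 CPM in HPP. In P it had 1.33 and 1.22, 1.31 and 1.48, 2.27 and 2.27, and 2.14 and 4.06 CPM. The HPP log2FC was 1.24 (SE 0.346, adjusted p = 0.0319) in T and 1.28 (SE 0.344, adjusted p = 0.0209) in P by edgeR, at a low level. Both calls were lost without either N library or without the second HPP library, where the log2FC was 0.96 in T and 0.74 in P, and the T call also with no filter on low counts (adjusted p = 0.0554). In MDA-MB-231 CTH was more abundant, and in P it had 43.5 and 26.8 CPM in N, 24.5 and 15.0 CPM in H, 78.5 and 45.8 CPM in NPP, and 38.9 and 32.6 CPM in HPP. Its P libraries in H lay below those of N and those in NPP above, without a call by edgeR (log2FC -0.83, SE 0.333, adjusted p = 0.214 and 0.82, SE 0.327, adjusted p = 0.265). With either block and without the filter both changes were called (adjusted p from 0.00757 to 0.0142 and from 0.00286 to 0.0137), and so was HPP against H (log2FC 0.86, SE 0.331, adjusted p = 0.113 without a block and 0.00243 and 0.00283 with either). In T of that line CTH had 37.4 and 28.4, 22.2 and 20.2, 68.4 and 40.8, and 37.7 and 24.9 CPM. PYCR1, the last enzyme of proline synthesis, fell in P of MCF10A by 1.46 (SE 0.423, adjusted p = 0.0296), a call lost without any 1 of the 4 libraries.

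Among the transporters SLC1A4 rose in T of MDA-MB-231, from 16.5 and 15.6 CPM in N to 25.5 and 30.0 CPM in HPP, with 18.7 and 18.4 CPM in H and 22.5 and 19.1 CPM in NPP. Polysomal levels were 16.2 and 21.9, 18.6 and 22.9, 22.2 and 17.4, and 25.7 and 25.5 CPM. In T the N and HPP libraries did not overlap and the log2FC was 0.79 (SE 0.181, adjusted p = 0.0120) by edgeR, a call lost without the second N or the second HPP library. In MCF10A, SLC1A4 had 3.50 and 4.32 CPM in N and 2.07 and 2.45 CPM in HPP in T, and 2.97 and 3.39 against 1.14 and 2.03 CPM in P, where a fall was called with either replicate block (log2FC -1.03, adjusted p = 0.0425 and 0.0264) and with the correction for length (adjusted p = 0.0389).

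SLC38A2, chosen here after its values were seen, had 224 and 433 CPM in N, 390 and 557 CPM in H, 799 and 737 CPM in NPP, and 966 and 956 CPM in HPP in P of MCF10A. Both groups with PP242 lay above both without it. The log2FC under HPP was 1.55 (SE 0.680, adjusted p = 0.126) by edgeR, and it was called up by DESeq2 (adjusted p = 0.0490), with the block within each fraction (adjusted p = 0.0197) and with the correction for length (adjusted p = 0.0349). In P of MDA-MB-231 it had 221 and 187 CPM in N, 263 and 274 CPM in H, 376 and 293 CPM in NPP, and 394 and 322 CPM in HPP. The HPP change there was 0.81 (SE 0.277, adjusted p = 0.0519), called up by DESeq2 (adjusted p = 0.0232), with either block (adjusted p = 0.00493 and 0.00189) and without the filter (adjusted p = 7.57e-05). The T change of that line under HPP was called up with either block (adjusted p = 0.0372 and 0.0167) and without the filter (adjusted p = 0.00984). In T of MCF10A its replicates differed widely, from 175 to 984 CPM in NPP.

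SLC7A5 in MCF10A had 488 and 625 CPM in N, 555 and 525 CPM in H, 343 and 397 CPM in NPP, and 438 and 414 CPM in HPP in T, and 524 and 713, 468 and 841, 307 and 388, and 467 and 423 CPM in P. The libraries with PP242 lay below those of N in both fractions, without a call. In MDA-MB-231 SLC7A5 had 1187 and 817 CPM in N, 732 and 425 CPM in H, 1559 and 933 CPM in NPP, and 727 and 1132 CPM in HPP in T, and 1518 and 1168, 841 and 849, 1820 and 862, and 1115 and 1107 CPM in P. The H libraries lay below those of N in both fractions, with a log2FC of -0.79 (SE 0.349, adjusted p = 0.361) in T and -0.67 (SE 0.349, adjusted p = 0.345) in P. Without the filter on low counts SLC7A5 was called down in H in T (adjusted p = 0.00828) and P (adjusted p = 0.0301), and up in HPP against H in T (adjusted p = 0.0105). Its partner SLC3A2 had 336 and 254.7 CPM in N and 243 and 391 CPM in HPP in T of MCF10A, and 329 and 324 CPM in HPP against 393 and 353 CPM in N in T of MDA-MB-231, with no call in any treatment contrast.

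The difference between the lines in the HPP change was tested in a joint fit of all 32 libraries. In T 3 genes had a higher log2FC in MDA-MB-231, SLC1A4, PSAT1 and MARS, against 2.04% of all tested genes, and 0 a lower one, against 1.27%. In P 2 had a higher log2FC, PSAT1 and MTHFD2, against 2.16%, and 0 a lower one, against 1.44%. With either replicate block YARS and WARS were also higher and CTH lower in T (-1.23 and -1.24, adjusted p = 0.0489 and 0.0392), and SLC1A4 and YARS higher and CTH lower in P (-1.22, adjusted p = 0.0453 and 0.0330). PYCR1 in T, and PYCR1 and WARS in P, were called higher with the block within each fraction but not with the plain one. DARS was called lower by DESeq2 in T (-0.76, adjusted p = 0.0389) and P (-0.71, adjusted p = 0.0487), and in T with the correction for length (-0.77, adjusted p = 0.0484). The genes called in all rose with the blocks from 473 to 650 and 1059 in T and from 515 to 726 and 1320 in P. Without the second T library of MCF10A NPP the same 3 genes were called in T and 3 in P, PSAT1 and MTHFD2 among them. For PSAT1 the difference was 1.37 (SE 0.257, adjusted p = 0.00455) in T and 1.21 (SE 0.257, adjusted p = 0.00940) in P, and for MTHFD2 1.18 (SE 0.199, adjusted p = 0.00170) in P by edgeR. PSAT1 in T and MTHFD2 in P held without any of the 8 libraries, and PSAT1 in P was lost without the first normoxic P library of MDA-MB-231. SLC1A4 (1.66, SE 0.402, adjusted p = 0.0234) lost its call without any 1 but the first normoxic MCF10A library, and MARS (1.14, SE 0.293, adjusted p = 0.0320) without any 1 but the second HPP library of MCF10A and with RLE scaling (adjusted p = 0.0974).

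Baseline loading was compared as normoxic P against normoxic T. 0 of the 37 genes were called in MCF10A, where 0% of all tested genes were up and 0% down, with 6 genes at an unadjusted p under 0.05 by edgeR and 0 called by DESeq2. In MDA-MB-231 0 were called as well by edgeR as fitted for the counts above, where 4.42% of all tested genes were up and 8.64% down, with 8 genes at an unadjusted p under 0.05 and 7 called up by DESeq2, which called 2499 in all where edgeR called 1764. With the replicate block PSAT1, WARS and YARS were called up, among 2340 in all, and with the number shared by a T and a P library as the block 0 were. MCF10A had a median log2 difference of P from T of 0.32 and MDA-MB-231 0.16, beside -0.00 and -0.03 for all tested genes, and the difference was positive for 27 of 37 and 28 of 36 genes. Leaving out 1 of the libraries compared gave medians from 0.18 (without the first P library) to 0.35 in MCF10A and from 0.12 to 0.21 in MDA-MB-231. PSAT1 (0.40, SE 0.136) and WARS (0.39, SE 0.124) were the highest of the synthetases and serine enzymes in MDA-MB-231, and KARS (0.84, SE 0.364) in MCF10A.

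Related genes outside the 37 were followed under HPP. All 3 scaffold proteins of the multisynthetase complex that were listed, AIMP1, AIMP2 and EEF1E1, fell in P of MDA-MB-231, and 2 of 3 fell in T and P of MCF10A, 1 of 3 in T of MDA-MB-231. In P the log2FC of AIMP2 was -2.42 (SE 0.377) in MCF10A and -0.75 (SE 0.170) in MDA-MB-231, and that of EEF1E1 was -2.39 (SE 0.389) and -1.003 (SE 0.207). Of 17 mitochondrial synthetases MARS2 alone was called. Its log2FC was -3.20 (SE 0.368) in T and -2.54 (SE 0.357) in P of MCF10A, and -1.30 (SE 0.177) and -1.31 (SE 0.178) in MDA-MB-231.

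ATF4 mRNA itself was not called under HPP. In MCF10A it had 414 and 478 CPM in N and 582 and 802 CPM in HPP in T, and 427 and 225 against 400 and 165 CPM in P. In MDA-MB-231 it had 455 and 608 against 739 and 766 CPM in T, and 371 and 387 against 436 and 493 CPM in P. The shares of all tested genes given above for HPP (7.43% up and 7.47% down in T and 10.2% and 11.9% in P of MCF10A, 6.31% and 6.91% in T and 9.71% and 9.73% in P of MDA-MB-231) apply to each related list. Of 13 genes in the list of ATF4 and stress genes, 3 rose and 1 fell in T and 2 rose and 2 fell in P of MCF10A, while 2 rose and 0 fell in T and 3 rose and 1 fell in P of MDA-MB-231. PPP1R15A, a phosphatase subunit that reverses the stress block of translation, rose by log2FC 3.41 (SE 0.329) in T and 3.51 (SE 0.330) in P of MCF10A and by 1.54 (SE 0.338) and 1.63 (SE 0.338) in MDA-MB-231. DDIT3, a stress-induced transcription factor, rose by 3.35 (SE 0.540) in T and 3.20 (SE 0.538) in P of MCF10A, and ATF3 by 1.01 (SE 0.273) in T and 1.42 (SE 0.268) in P of MDA-MB-231.

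Of 14 further amino acid and folate enzymes tested in MCF10A, 2 rose and 2 fell in T and again in P, and of 13 in MDA-MB-231, 1 rose and 3 fell in T and 1 rose and 2 fell in P. GLUL, the glutamine synthetase, rose in each, by log2FC 1.93 (SE 0.257) in T and 1.82 (SE 0.256) in P of MCF10A and by 1.07 (SE 0.149) and 0.63 (SE 0.147) in MDA-MB-231. PRODH, which breaks down proline, rose by 2.22 (SE 0.685) in T of MCF10A. PYCRL, a proline enzyme, fell in MCF10A with a log2FC of -1.65 (SE 0.312) in T and -2.03 (SE 0.314) in P. In MDA-MB-231 MTHFD2L fell in T (log2FC -0.77, SE 0.186) and GOT2 in P (log2FC -0.48, SE 0.138).

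Of 13 further amino acid transporters, 3 rose and 1 fell in T and 4 rose and 1 fell in P of MCF10A, while 1 fell in T and none was called in P of MDA-MB-231. SLC38A5 had the largest rise, with log2FC 6.23 (SE 0.854) in T and 5.91 (SE 0.815) in P of MCF10A, followed by SLC7A8 with 2.65 (SE 0.334) and 3.38 (SE 0.348). SLC7A6, a carrier of cationic and neutral amino acids, fell in T of MDA-MB-231 by 0.83 (SE 0.198).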

How the data were processed

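Gene-level expected counts, as deposited by the authors in 1 table per line, were used. According to the study's methods, reads were aligned with STAR and counted with RSEM on GRCh38 with GENCODE genes, whereas the submitters' processing notes list GRCh37, so no coordinate was taken from the count tables. Every count column could be tied to a sample. The expected counts were rounded for DESeq2 only. Only protein-coding genes were kept, those with low counts were removed with edgeR's filter by expression, and libraries were scaled by TMM. Quasi-likelihood tests were fitted with edgeR 4.0.16 (limma 3.58.1, R 4.3.3) over the 8 groups of each line, or the 16 groups of both lines. p-values were adjusted by Benjamini and Hochberg over all 13124 genes tested in MCF10A, 13510 in MDA-MB-231 and 14298 in the joint fit, and calls were made at an adjusted p under 0.05. The fits left 8 residual degrees of freedom per line, with a common biological coefficient of variation of 0.325 (MCF10A) or 0.150 (MDA-MB-231). The p-values measure the spread between these replicates, and 2 libraries against 2 allow no exact permutation p under 0.333.

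The 37 genes, the related lists and the motifs were chosen with earlier results of these data known. Values by library were given for 12 listed members and for up to 3 called members with the largest change in each contrast, 20 in all, with ranges where a line held no call. Of the related lists, ATF4 and the 2 called genes with the largest HPP change were named, except for an item that is not reported here. Alternatives were DESeq2 1.42.0, RLE size factors, a minimum of 1 read in place of the filter, an adjusted p under 0.1, a replicate block, and leaving out each library. A length-dependent offset (smoothing span 0.3) and leaving out the second T library of MCF10A NPP were added after seeing the data.

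Same-numbered libraries were checked for shared deviations from their group means. All 6 correlations between T groups of MCF10A were over 0.1 (0.283 to 0.778), so the numbers were taken to pair those libraries. In P of MCF10A 3 of 6 were, and in MDA-MB-231 4 of 6 in each fraction, so they were not taken to pair there. The main calls used no block, and calls in T of MCF10A with the block are given beside them. T and P libraries of MCF10A with the same treatment and number correlated at -0.250 to 0.214. The T differences in H, NPP and HPP of MCF10A also followed transcript length. Whether the numbers mark a shared culture was not tested.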

Additional observations from a re-analysis of the deposited data

Results flagged for a closer look

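In 5 cases the HPP change differed between the lines by the interaction term of the joint edgeR fit. In T the log2FC under HPP was higher in MDA-MB-231 than in MCF10A by 1.66 for SLC1A4, 1.37 for PSAT1 and 1.14 for MARS. In P it was higher by 1.18 for MTHFD2 and 1.21 for PSAT1. The line and its medium cannot be told apart in these differences.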

How the results depend on the processing

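No called gene changed direction under any alternative run. Of 62 calls, 1 was lost with DESeq2, 8 with RLE size factors, 15 without the filter on low counts, 3 with the offset for transcript length and 0 with a replicate block. When libraries were left out singly, 126 repeats lost the call and 189 kept it, and the median of the 37 genes moved by more than its spread between replicates in 15 repeats and by less in 138. The causes were not tested, and the adjustment runs over more genes where the filter is absent.

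The numbers called moved as follows, each given as members of the 37 out of all genes called. In MCF10A, H in T (1 of 202) became 4 of 503 with DESeq2, 0 of 194 with RLE, 0 of 212 without the filter, 2 of 438 with a replicate block within each fraction and 3 of 507 with the length offset. H in P (2 of 195) became 0 of 193 with RLE and 0 of 226 without the filter, and HPP in T (8 of 1956) became 4 of 1630 without the filter. HPP against H in T (0 of 491) became 1 of 1256 with the length offset. With DESeq2, the block within each fraction and the length offset, NPP in P (0) became 2 of 665, 2 of 666 and 2 of 803, HPP against H in P (1 of 853) became 2 of 1578, 3 of 1951 and 3 of 1999, and Te under HPP (0 of 0) became 1 of 140, 1 of 100 and 1 of 81.

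In MDA-MB-231, H in T (1 of 171) became 2 of 353 with DESeq2, 3 of 499 without the filter and 2 of 311 with the block within each fraction. NPP in T (0 of 75) became 1 of 251 with DESeq2 and 1 of 324 without the filter. HPP in T (3 of 1786) became 8 of 2149 with DESeq2, 9 of 2482 and 9 of 2608 with the replicate blocks and 8 of 2442 with the length offset, and HPP against H in T (1 of 511) became 3 of 970 with DESeq2, 2 of 868 without the filter, 2 of 962 with the block within each fraction and 2 of 836 with the length offset. H in P (1 of 310) became 6 of 652 with DESeq2, 2 of 280 with RLE, 5 of 822 without the filter, 4 of 611 and 4 of 641 with the blocks, 3 of 614 at an adjusted p under 0.1 and 5 of 639 with the length offset. NPP in P (0 of 264) became 2 of 569 without the filter and 3 of 451 and 3 of 488 with the blocks. HPP in P (6 of 2627) became 10 of 3121 with DESeq2 and 11 of 3412 and 11 of 3606 with the blocks, and HPP against H in P (3 of 1551) became 5 of 2089 with DESeq2 and 5 of 2391 with the block within each fraction. P against T (0 of 1764) became 7 of 2499 with DESeq2, 4 of 1965 with RLE, 3 of 2340 and 5 of 2646 with the blocks and 5 of 2498 with the length offset. The line difference under HPP in T (3 of 473) became 6 of 650 and 7 of 1059 with the blocks and 5 of 919 with the length offset, and that in P (2 of 515) became 5 of 726, 7 of 1320 and 4 of 1222 with the same settings and 5 of 929 with DESeq2.

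With 1 library left out, the counts ran in MCF10A from 0 to 1 for H and for NPP in T, 2 to 8 for HPP in T, 0 to 2 for H in P, 4 to 10 for HPP in P and 1 to 2 for HPP against H in P, where the upper values for H in T, HPP in T, H in P and HPP in P, and that for the line difference in T, come from the fit without the second NPP library of T. In MDA-MB-231 they ran from 0 to 1 for H in T, 1 to 2 for HPP in T, 0 to 1 for HPP against H in T, 2 to 3 for HPP in P and were 0 for HPP against H in P. For the line difference under HPP they were 1 to 3 in each fraction.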
